A study of Mus musculus with 6 samples.

Results

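The genes of cholesterol and fatty acid synthesis were followed in tumours grown from GLMT1 cells under the back skin of mice with and without tenascin-C. The list held 31 genes, and every probe set carrying 1 of these symbols alone was taken, which gave 69 probe sets for 30 genes out of 45037 probe sets and 18193 genes in all. Acat2 was not analysed here. The members were 6 enzymes of the mevalonate pathway, 11 enzymes from squalene to cholesterol, 8 enzymes of fatty acid synthesis, and 5 regulators and carriers. For summaries a gene was read from its brightest probe set, that with the highest mean.

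Cells make cholesterol from acetyl-CoA through mevalonate, farnesyl diphosphate, squalene and lanosterol. Fatty acids are made from the same acetyl-CoA by carboxylation, chain building, elongation and desaturation. Both branches are switched on by SREBP transcription factors, which SCAP escorts out of the endoplasmic reticulum when sterols are scarce and which INSIG proteins hold back when sterols are plentiful. The SREBF2 product acts mainly on sterol genes and the SREBP-1c form from SREBF1 mainly on lipogenic genes. Adipocytes and sebaceous glands, both found in skin, are rich in the fatty acid branch.

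GLMT1 is a tumour line of the GRS/A strain named after a lung metastasis. The WT hosts were male GRS/A mice and the TNKO hosts were male GRS/A-TgH(TnC) mice, deficient in tenascin-C, a glycoprotein of the extracellular matrix. All hosts were 8 weeks old at the start and 10 weeks old in the sample labels, and all received the same cells, which the labels do not describe as lacking Tnc. There were 3 tumours per host genotype, 1 per mouse, each on 1 Affymetrix array.

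The deposited log2 values of most probe sets were nearly the same on all arrays, while 249 probe sets spanned more than 0.01 log2 units over the 6 tumours. The residual SD, which is the spread of a probe set within the groups, had a median of 1.78 millionths of a log2 unit. Each difference, TNKO minus WT, is accordingly written in millionths of a deposited log2 unit and in residual SDs. They are not folds, and sizes in millionths are not comparable between probe sets. Of 8 epithelial markers, Krt8 stood at 11.4, Krt18 at 8.92, Cdh1 at 7.48 and the other 5 between 6.07 and 7.04, against a median of 7.09 over all genes. The number of arrays limits the precision.

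As deposited and by brightest probe sets, the sterol branch stood lower in tumours of TNKO hosts and most of the fatty acid branch did not. Of the 17 mevalonate and sterol enzymes 16 had a difference below 0, against 42.4% of all genes, and their median was -1.74 residual SDs, against 0.28 over all genes. Of the 8 fatty acid enzymes 2 did, Me1 and Scd2, with a median of 0.75 residual SDs. No member passed adjustment in its brightest probe set (limma with Benjamini-Hochberg adjustment), where 0.121% of all genes did and 0.077% in the lower direction. At an unadjusted p under 0.05, 11 of the 30 were lower and 0 higher, against 8.43% and 9.99% of all genes. Among all 69 member probe sets 1 fell, a dimmer probe set of Hmgcs1, against 0.175% of all probe sets called and 0.133% called lower. Of the 69, 50 had a difference below 0, against 45.6% of all probe sets. At an unadjusted p under 0.05, 21 of the 69 were lower and 0 higher, against 10.8% and 9.53% of all probe sets. By branch, 31 of the 38 mevalonate and sterol probe sets and 11 of the 22 fatty acid ones had a difference below 0. At that unadjusted p 15 of the 38 and 5 of the 22 were lower, and 0 were higher in either branch.

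At the gene level 8 of the 17 sterol branch enzymes were lower at that unadjusted p, where 8.43% of all genes were. In 9 of the 17 all TNKO tumours lay below all WT tumours, against 11.1% of all genes. Brighter genes leaned lower in general. Among genes above the median level, where 15 of the 17 enzymes lie, 55.8% had a difference below 0, 14.1% were lower at that unadjusted p and 17.9% had groups apart in that direction. The difference between the sterol and the fatty acid branch was not itself tested.

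**Figure D1:**
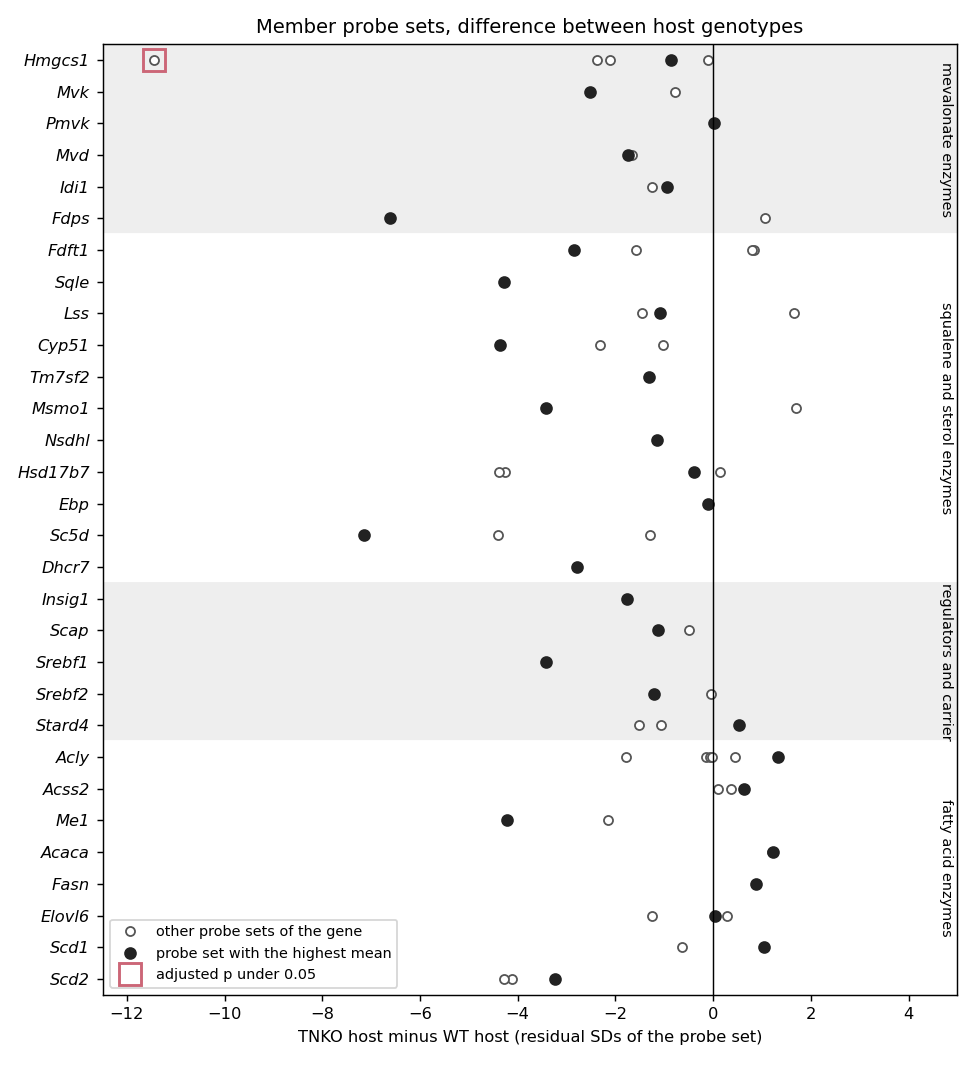
Difference between TNKO and WT hosts for each of the 69 probe sets of the 30 measured genes, in residual SDs (horizontal axis), with genes grouped by role (vertical axis). Filled points are the brightest probe set of a gene, open points the others, and the square marks the probe set with an adjusted p under 0.05. The mevalonate and sterol enzymes lie mostly to the left of 0, as do Me1 and Scd2. The other fatty acid enzymes lie on both sides of 0, from -1.79 to 1.33 residual SDs, both in Acly.

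Hmgcs1 encodes the cytosolic HMG-CoA synthase, which condenses acetyl-CoA units into HMG-CoA, the substrate for mevalonate. It was the gene with the probe set that fell. That probe set stood at 9.21, 0.26 and -9.47 millionths from the WT mean in WT tumours 1, 2 and 3, and at -123, -138 and -113 millionths in TNKO tumours 1, 2 and 3. The TNKO tumours lay close together and well below every WT tumour. The difference was -125 millionths (SE 8.9), or -11.44 residual SDs (adjusted p = 0.0495, limma). With any 1 array left out the adjusted p ran from 0.0697 to 0.151 (limma), so the call rests on all 6 arrays. In those fits 0% to 0.162% of all probe sets were called, against 0.175% with all 6 arrays.

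The other 4 probe sets of Hmgcs1 were lower too, by unequal amounts. In residual SDs they differed by -2.39, -2.11, -0.86 and -0.10. The groups were apart in the first pair. The brightest, at a level of 10.1, overlapped between the groups (adjusted p = 0.592, limma), so the gene is not among those called by its brightest probe set. A name ending in _x_at, which 1 of the pair carries, marks probes that may also bind other transcripts.

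Fdps, which makes farnesyl diphosphate at the branch point towards squalene and protein prenylation, stood lowest of the mevalonate enzymes in residual SDs when brightest probe sets are compared. Its WT tumours were at 13.0, -20.0 and 6.99 millionths from their mean and its TNKO tumours at -245, -164 and -205 millionths. The groups did not overlap, and the gap was wider than the spread in either group. The difference was -205 millionths (SE 25.3), or -6.61 residual SDs (adjusted p = 0.0679, limma). Its other probe set, near the bottom of the scale at a level of 5.46, differed by 0.60 millionths.

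The remaining mevalonate enzymes differed by less. Mvk, mevalonate kinase, differed by -2.52 residual SDs and Mvd, mevalonate diphosphate decarboxylase, by -1.74, each with every TNKO tumour below every WT tumour. Their adjusted p-values were 0.187 and 0.299 (limma). Idi1, the isopentenyl diphosphate isomerase, differed by -0.94 residual SDs with overlapping groups. Pmvk, phosphomevalonate kinase, was the only enzyme of the sterol branch not lower as deposited, at 0.02 residual SDs.

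Among the steps from farnesyl diphosphate to lanosterol, Sqle stood lowest in residual SDs by its brightest probe set. It encodes squalene epoxidase, a rate-limiting oxygen-dependent step. Its WT tumours stood at -59.6, -88.7 and 148 millionths from the WT mean and its TNKO tumours at -402, -568 and -442 millionths. WT tumour 3 was the highest and the groups did not overlap. The difference was -471 millionths (SE 89.9), or -4.27 residual SDs (adjusted p = 0.101, limma).

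Fdft1, squalene synthase, makes the first molecule committed to sterols. Its WT tumours were at 3.38, -4.02 and 0.64 millionths and its TNKO tumours at -23.1, -56.3 and -29.5 millionths. TNKO tumour 2 was the lowest and the groups were apart. The difference was -36.3 millionths (SE 10.4), or -2.85 residual SDs (adjusted p = 0.159, limma). Of its other 3 probe sets 1 was lower with groups apart and 2, both at a level of 6.10, were higher with overlap. Lss, lanosterol synthase, differed by -1.10 residual SDs with overlapping groups, and its other 2 probe sets pointed in opposite directions.

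After lanosterol, Cyp51, the sterol 14-alpha demethylase, had TNKO values close to each other. Its WT tumours stood at 9.66, -0.53 and -9.14 millionths from the WT mean and its TNKO tumours at -27.6, -31.1 and -30.2 millionths. All TNKO tumours lay below all WT tumours. The difference was -29.6 millionths (SE 5.53), or -4.37 residual SDs (adjusted p = 0.0993, limma), and its 2 dimmer probe sets were lower as well.

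Msmo1, the methylsterol monooxygenase that starts removal of the methyl groups at C-4, had WT tumours at -23.8, 1.87 and 21.9 millionths and TNKO tumours at -225, -239 and -103 millionths. TNKO tumour 3 lay nearest to the WT tumours without reaching them. The difference was -189 millionths (SE 45.2), or -3.42 residual SDs (adjusted p = 0.127, limma). Its dim second probe set, at a level of 5.96, differed by 3.3 millionths.

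Sc5d, the lathosterol oxidase that introduces the C-5 double bond, had the smallest unadjusted p of all members in the brightest probe sets. Its WT tumours were at 6.92, -22.2 and 15.3 millionths and its TNKO tumours at -173, -176 and -131 millionths. The groups were far apart relative to their spread. The difference was -160.0 millionths (SE 18.3), or -7.14 residual SDs (adjusted p = 0.066, limma). A second probe set repeated it at -4.40 residual SDs with groups apart, and the third, dimmer one was at -1.30 with overlap.

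Dhcr7, which performs the last step of the pathway through 7-dehydrocholesterol, had WT tumours at -6.28, 14.5 and -8.22 millionths and TNKO tumours at -36.7, -33.3 and -20.3 millionths. The groups did not overlap. The difference was -30.1 millionths (SE 8.81), or -2.79 residual SDs (adjusted p = 0.165, limma).

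The other 4 late enzymes overlapped between the groups in their brightest probe sets. Nsdhl and Hsd17b7, which complete the demethylation at C-4, differed by -1.15 and -0.40 residual SDs, Tm7sf2, a sterol C-14 reductase, by -1.32, and Ebp, the sterol isomerase, by -0.10. The probe sets of Hsd17b7 disagreed. Its next 2 probe sets differed by -4.26 and -4.38 residual SDs with groups apart, and the dimmest by 0.15.

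**Figure D2:**
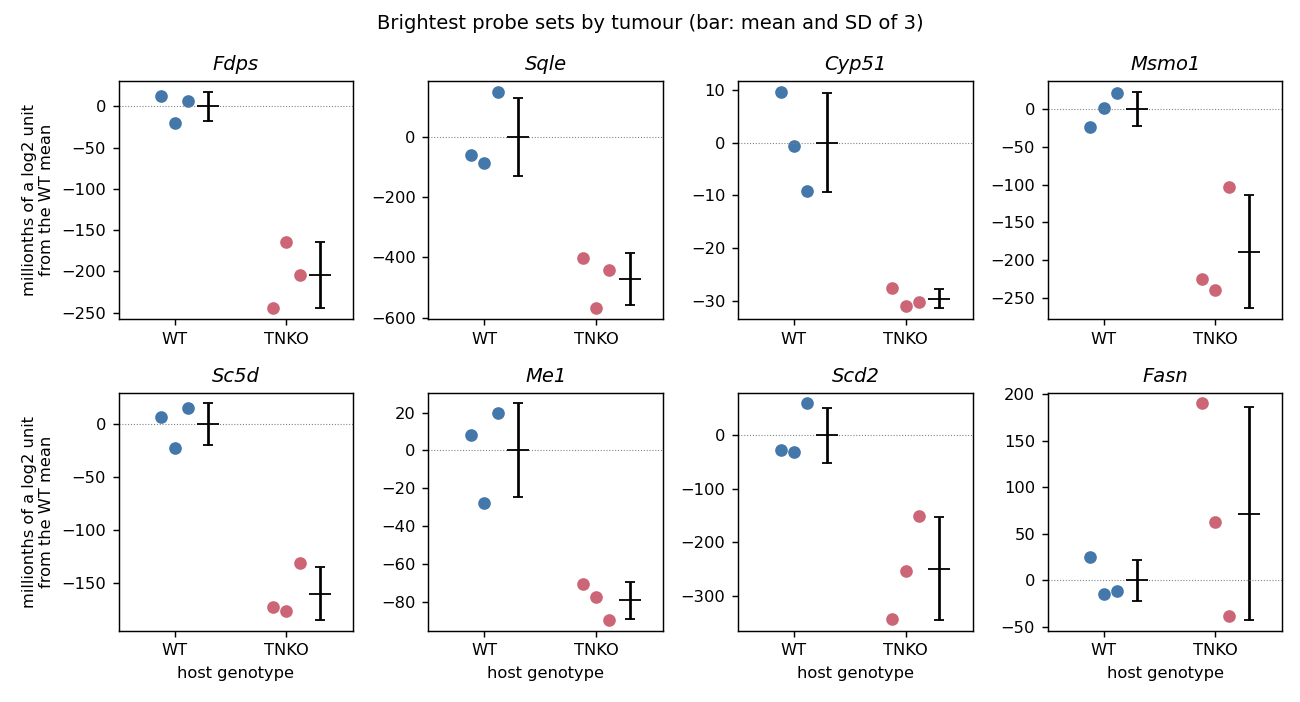
Values of the brightest probe set in each tumour for 5 sterol branch enzymes (Fdps, Sqle, Cyp51, Msmo1 and Sc5d) and 3 fatty acid enzymes (Me1, Scd2 and Fasn), in millionths of a deposited log2 unit from the WT mean (vertical axis), by host genotype (horizontal axis). Points are tumours and bars the mean and SD of 3. The groups are apart in every panel except that of Fasn, where TNKO tumour 3, at -37.8, lies below the WT tumours.

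The promoters of sterol genes carry binding sites for SREBP and for its partner NF-Y, which binds the CCAAT box. RefSeq start sites on GRCm38.p6 were matched for 24 of the 30 measured genes, and the 250 bases before each start were searched on both strands for TCACNCCAC, a form of the sterol regulatory element, for CCAAT and for the E-box CACGTG. A gene was counted when any of its listed starts had a match. CCAAT occurred in 14 of 14 matched mevalonate and sterol enzymes, in 3 of 6 fatty acid enzymes and in 3 of 4 regulators, against 37.5% of all 27025 genes in the table. TCACNCCAC occurred in 1 member, Hmgcs1, against 1.22% of all genes. CACGTG occurred in 3 of the 14, in 0 of the 6 and in 2 of the 4, against 6.86%. These matches describe letters in a window and are not shown binding sites. The 4 sterol branch promoters below are examples from genes with a probe set whose groups were apart. Mvk, Mvd, Hsd17b7 and Dhcr7 also had both such a probe set and a matched promoter and are not printed. Fasn is set beside them as a fatty acid gene whose groups overlapped. Each runs 5' to 3' along its gene, with matches to these 2 motifs, CCAAT on either strand and the sterol element, in capitals.
Hmgcs1, chr13:119690101-119690350, + strand: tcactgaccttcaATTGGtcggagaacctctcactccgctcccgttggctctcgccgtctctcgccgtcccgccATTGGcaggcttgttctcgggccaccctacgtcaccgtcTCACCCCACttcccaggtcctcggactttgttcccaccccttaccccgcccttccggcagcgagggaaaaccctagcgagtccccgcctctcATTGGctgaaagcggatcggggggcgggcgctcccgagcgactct
Cyp51, chr5:4104698-4104947, - strand: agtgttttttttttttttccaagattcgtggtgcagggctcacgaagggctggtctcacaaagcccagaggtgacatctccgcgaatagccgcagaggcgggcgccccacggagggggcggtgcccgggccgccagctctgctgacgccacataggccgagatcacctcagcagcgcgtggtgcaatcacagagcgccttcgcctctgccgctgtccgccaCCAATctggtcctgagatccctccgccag
Msmo1, chr8:64733579-64733828, - strand: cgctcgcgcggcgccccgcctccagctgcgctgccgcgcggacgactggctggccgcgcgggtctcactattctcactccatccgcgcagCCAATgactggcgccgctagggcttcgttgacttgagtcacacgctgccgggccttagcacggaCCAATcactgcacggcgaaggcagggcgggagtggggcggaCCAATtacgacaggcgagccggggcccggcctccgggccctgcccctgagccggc
Sc5d, chr9:42264301-42264550, - strand: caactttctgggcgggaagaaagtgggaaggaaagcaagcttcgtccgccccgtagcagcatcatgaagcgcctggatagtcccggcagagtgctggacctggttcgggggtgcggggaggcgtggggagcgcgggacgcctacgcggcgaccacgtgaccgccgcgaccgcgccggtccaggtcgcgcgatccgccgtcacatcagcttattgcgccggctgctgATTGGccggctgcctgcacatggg
Fasn, chr11:120824548-120824797, - strand: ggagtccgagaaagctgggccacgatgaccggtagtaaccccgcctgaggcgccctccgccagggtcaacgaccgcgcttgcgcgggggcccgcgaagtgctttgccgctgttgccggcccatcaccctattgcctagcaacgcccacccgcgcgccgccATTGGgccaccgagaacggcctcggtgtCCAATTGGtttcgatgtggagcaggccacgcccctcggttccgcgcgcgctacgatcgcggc
In Hmgcs1 the match TCACCCCAC lies between 137 and 129 bases before the start, with 3 CCAAT boxes around it. Msmo1 holds 3 CCAAT boxes, and Cyp51 and Sc5d hold 1 each within 29 bases of the start. Fasn holds 3, of which 2 overlap. A CCAAT box was thus present in Fasn as well as in the sterol genes.

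Among the regulators of the pathway the groups were apart only in Srebf1. Over all genes they were apart in the lower direction in 11.1% and in the higher direction in 15%. The probe set of Srebf1 had WT tumours at 18.3, -51.1 and 32.9 millionths and TNKO tumours at -107, -116 and -159 millionths. The groups were apart, with WT tumour 2 nearest to the TNKO tumours. The difference was -127 millionths (SE 30.4), or -3.41 residual SDs (adjusted p = 0.127, limma). The file does not say which of the transcripts of Srebf1 the probe set reads.

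Insig1, which retains SCAP and is itself an SREBP target, differed by -1.76 residual SDs with overlapping groups (adjusted p = 0.295, limma). Srebf2 differed by -1.21 residual SDs and Scap by -1.13, each with overlap, and their dimmer probe sets by -0.05 and -0.50. Stard4, a cytosolic sterol carrier, differed by 0.53 residual SDs in its brightest probe set and by -1.51 and -1.08 in the other 2. Of the 5 genes 1, Srebf1, had an unadjusted p under 0.05, where 8.43% of all genes were lower and 9.99% higher at that p.

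On the fatty acid side, the groups overlapped in the brightest probe set of 6 of the 8 enzymes and were apart, lower, in 2. Over all genes they were apart in the lower direction in 11.1% and in the higher direction in 15%, so most genes overlapped too. Acly, the citrate lyase that supplies cytosolic acetyl-CoA, differed by 0.38 millionths (SE 0.233) in its brightest probe set, or 1.33 residual SDs. Its 6 probe sets split into 4 lower and 2 higher. Of the lower ones 1, at a level of 8.27, differed by -1.79 residual SDs with groups apart (adjusted p = 0.290, limma). Acss2, which makes acetyl-CoA from acetate, differed by 0.63 residual SDs, Acaca, the acetyl-CoA carboxylase, by 1.22, and Elovl6, an elongase of palmitate, by 0.04. In the brightest probe sets of these genes the adjusted p-values ran from 0.442 for Acaca to 0.989 for Elovl6 (limma).

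Fasn, fatty acid synthase, varied among TNKO tumours more than between hosts. Its WT tumours stood at 25.3, -14.5 and -10.9 millionths from the WT mean and its TNKO tumours at 189.7, 62.8 and -37.8 millionths. TNKO tumours 1 and 2 were the highest and TNKO tumour 3 the lowest of all 6. The difference was 71.6 millionths (SE 67.0), or 0.87 residual SDs (adjusted p = 0.584, limma).

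Me1 and Scd2 stood apart from that. Me1, cytosolic malic enzyme, supplies NADPH for synthesis. Its WT tumours were at 8.05, -27.8 and 19.7 millionths and its TNKO tumours at -70.5, -77.4 and -89.5 millionths. The groups did not overlap, with a difference of -79.1 millionths (SE 15.3), or -4.22 residual SDs (adjusted p = 0.102, limma). The second probe set of Me1 differed by -2.15 residual SDs, again with groups apart.

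Scd2 encodes a stearoyl-CoA desaturase, which puts the double bond into saturated fatty acids. Its brightest probe set had WT tumours at -28.1, -31.8 and 59.9 millionths and TNKO tumours at -344, -253 and -152 millionths. The groups were apart, with a difference of -249.6 millionths (SE 63.1), or -3.23 residual SDs (adjusted p = 0.137, limma). The other 2 probe sets went the same way with groups apart, at -4.12 and -4.28 residual SDs (adjusted p = 0.104 and 0.101, limma). Without WT tumour 2 the dimmest of the 3 passed adjustment, at -317 millionths (adjusted p = 0.0429, limma), and without any other single array it did not.

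Scd1, the related desaturase that is abundant in adipose tissue and sebaceous glands, had a different pattern and by far the widest span of the members. Its level was 10.24, 10.18 and 10.18 in WT tumours 1, 2 and 3 and 10.30, 10.27 and 10.18 in TNKO tumours 1, 2 and 3. TNKO tumours 1 and 2 were the highest, then WT tumour 1, and TNKO tumour 3 lay with the lower WT tumours. The difference was 0.053 log2 units, or 1.04 residual SDs (adjusted p = 0.511, limma). The dimmer probe set of Scd1 differed by -0.63 residual SDs and did not repeat this order, as it was highest in WT tumour 3.

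Markers of adipocytes were also highest in TNKO tumours 1 and 2. Adipoq, the adipocyte hormone adiponectin, stood at 7.38, 6.60 and 6.46 in WT tumours and at 8.29, 7.98 and 7.03 in TNKO tumours. By brightest probe sets, TNKO tumours 1 and 2 were the highest arrays in 10 of 10 measured adipocyte markers. They were so in 3 of the 8 fatty acid enzymes (Acaca, Fasn and Scd1) and in 0 of the 17 sterol branch enzymes. In 9 of those 17, and in Me1 and Scd2, all TNKO tumours lay below all WT tumours, so this order was excluded in advance. The share of all genes with this order was not computed, so the 2 counts cannot be set against each other. The summed level of the 10 markers ran from 66.5 to 68.3 in WT tumours and from 67.7 to 71.0 in TNKO tumours. Their part in Scd1, Fasn and Acaca was not tested. In bulk tumours fewer cells of a type and less RNA per cell cannot be told apart.

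**Figure D3:**
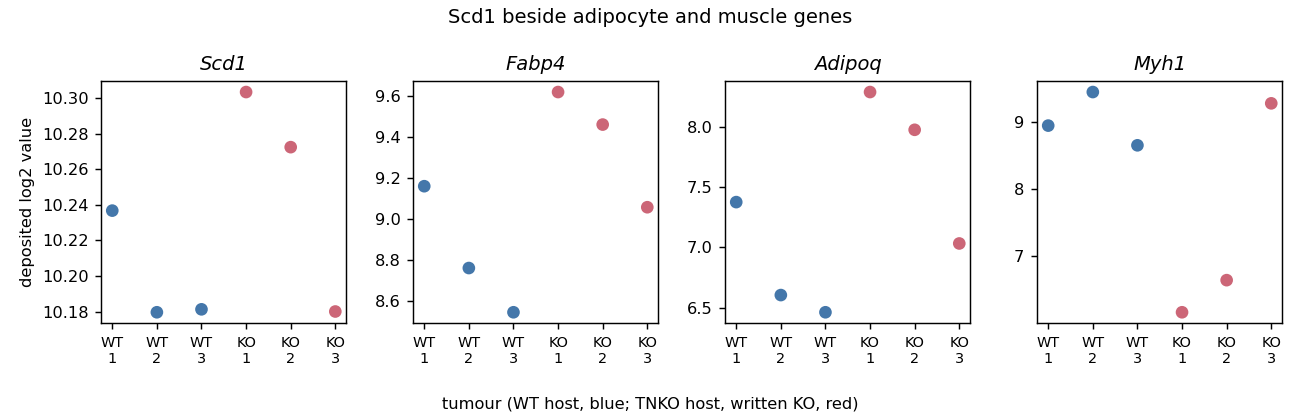
Deposited log2 value (vertical axis, with its own range in each panel) in each of the 6 tumours (horizontal axis) for Scd1, for the adipocyte genes Fabp4 and Adipoq, and for Myh1, a skeletal muscle myosin. TNKO tumours 1 and 2, written KO, are highest in Scd1, Fabp4 and Adipoq and lowest in Myh1, and TNKO tumour 3 lies within the WT range in all 4.

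Other markers of skin and muscle also differed between single tumours. Summed over 8 hair genes, TNKO tumour 3 stood at 67.9 and the other 5 tumours between 49.3 and 49.8. Summed over 8 skeletal muscle genes, TNKO tumours 1 and 2 stood at 52.2 and 52.8 and the other 4 between 56.3 and 57.6. Of 6 sebaceous gland markers 4 were higher in TNKO hosts and 2 lower. With TNKO tumour 1, 2 or 3 left out, in that order, 16, 16 and 15 of the 17 sterol branch enzymes were lower. At an unadjusted p under 0.05, 7, 6 and 8 of them were. Over all probe sets 46.4%, 46.9% and 45.0% were then lower, and 8.60%, 8.50% and 9.28% at that p. The part of these tissues in the sterol enzymes was not tested.

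Within the sterol branch the 3 tumours of a genotype did not share 1 order. Of the 17 enzymes 8 peaked in WT tumour 1, 4 each in WT tumours 2 and 3, and 1 in TNKO tumour 3. TNKO tumour 2 was the lowest in 10, TNKO tumour 1 in 4, TNKO tumour 3 in 2 and WT tumour 3 in 1. The median position of the 17 enzymes, in residual SDs from the mean of all tumours, was 1.42, 1.11 and 0.63 in WT tumours 1, 2 and 3 and -0.57, -1.69 and -0.60 in TNKO tumours. All WT tumours lay above all TNKO tumours in this median. Over all genes the medians were -0.17, -0.11 and -0.12 in WT and 0.13, 0.16 and -0.02 in TNKO tumours. Those were also apart, but with the TNKO tumours above. The 8 fatty acid enzymes had medians of 0.05, 0.25 and -0.72 in WT and 1.12, -0.02 and -0.61 in TNKO tumours, which overlapped.

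**Figure D4:**
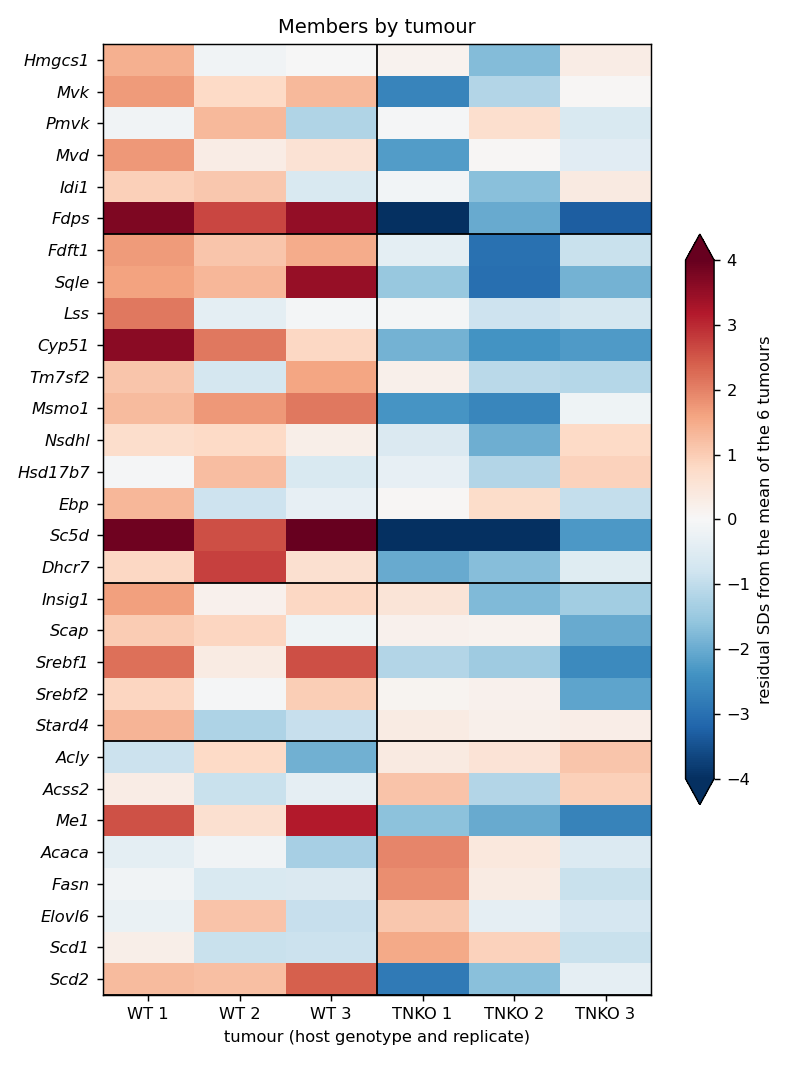
Each measured gene (rows, grouped as mevalonate enzymes, squalene and sterol enzymes, regulators and carrier, and fatty acid enzymes) in each tumour (columns), read from its brightest probe set and coloured by its distance in residual SDs from the mean of the 6 tumours. Red is higher and blue lower, with colours held at 4 and -4. The sterol branch is red in WT and blue in TNKO columns for Fdps, Fdft1, Sqle, Cyp51 and Sc5d, among others, and the fatty acid rows show no such division except in Me1 and Scd2.

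Array controls also differed by host genotype. Spiked hybridisation controls gave higher values on TNKO arrays in 18 of 18 probe sets, with groups apart in 16 and a median of 3.18 residual SDs. Of 5 control probe sets at the 5' end of mouse transcripts 4 were lower, with groups apart in 4 and a median of -4.22. Of 5 counted as from the middle 4 were lower with groups apart and 1 was higher with groups apart, with a median of -3.47. Of 5 at the 3' end 4 were lower, with groups apart in 2 and a median of -1.32. Over all probe sets groups were apart in 13.8% in the lower direction and in 14.2% in the higher. The part of these control differences in the lower sterol enzymes was not tested. The sterol counts also depend on how arrays are scaled. With array medians subtracted or with quantile normalization 17 of the 17 sterol enzymes and 7 of the 8 fatty acid enzymes had a difference below 0, with 99.2% and 98.5% of all probe sets below 0. None of the 17 was then lower at an unadjusted p under 0.05, and of all probe sets 0.031% and 1.25% were, against 10.8% as deposited, so that loss was general. Over all probe sets the median difference became -764 and -538 millionths under those scalings, from 0.10 as deposited. Subtraction of medians moves all probe sets alike, so positions relative to that median stay as deposited. There 17 of the 17 sterol and 2 of the 8 fatty acid enzymes were lower. After quantile normalization 13 of the 17 and 7 of the 8 were lower than that median. The contrast between the branches was thus not seen under quantile normalization.

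Genes around the synthesis pathway were read in the same way, and 0 of 37 passed adjustment, where 0.121% of all genes did. Of 10 measured genes for other sterol steps and uptake 8 were lower, 3 of them at an unadjusted p under 0.05, and 2 were higher at that threshold. Over all genes 42.4% were lower, and 8.43% were lower and 9.99% higher at that threshold. Ggps1, which makes geranylgeranyl diphosphate from the product of Fdps, differed by -3.46 residual SDs, Npc2, which carries cholesterol out of lysosomes, by -2.94, and Npc1l1, a sterol importer of the gut, by 3.81 (adjusted p = 0.126, 0.153 and 0.138, limma). In each of the 3 the groups did not overlap.

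Of 8 genes of sterol efflux and storage 3 were lower and 5 higher. At an unadjusted p under 0.05, 0 of the 8 were lower and 2 higher, against 8.43% and 9.99% of all genes. Mylip, a ubiquitin ligase that removes lipoprotein receptors, had WT tumours at -6.53, -1.14 and 7.67 millionths and TNKO tumours at 20.3, 30.02 and 25.4 millionths. All TNKO values exceeded all WT values, and the difference was 4.12 residual SDs (adjusted p = 0.104, limma). Abca1, the cholesterol efflux pump, differed by 2.36 residual SDs with groups apart (adjusted p = 0.202, limma). Apoe differed by -0.57 and Abcg1 by 0.18, both with overlap.

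Of 19 other lipogenic genes 7 were lower and 12 higher, where 42.4% of all genes were lower. At an unadjusted p under 0.05, 1 was lower and 2 were higher, near the shares of 8.43% and 9.99% over all genes. Gpam, which starts glycerolipid synthesis, differed by 3.05 residual SDs and Mcat, the mitochondrial malonyl transferase, by 3.56, while Oxsm, the mitochondrial 3-oxoacyl synthase, differed by -2.44 (adjusted p = 0.146, 0.159 and 0.229, limma). In millionths these were 30.8, 1.29 and -1.20. Of the 19 genes 10 peaked in TNKO tumour 1. As in the fatty acid enzymes, the median of this list lay above 0, at 0.28 residual SDs, which is also the median over all genes.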

How the data were processed

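RNA of 6 tumours was measured on 1-colour Affymetrix arrays. The deposited table holds log2 values normalized by the authors, with R 2.7.2 named in the submitters' processing notes. How the values were summarized and normalized, and the log base, are not stated in the sources used here, and log2 was taken from the range of the values. Arrays give no read depth.

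All 45037 probe sets other than 64 controls were fitted with limma 3.58.1 in R 4.3.3 (lmFit, eBayes), two-sided, with Benjamini-Hochberg adjustment over all of them and a threshold of 0.05. The procedure was tested on simulated data. Symbols came from the platform annotation of 2016, and the identifiers of all 69 member probe sets matched a reference gene table, with 0 symbols changed. The members and lists were chosen with earlier results of these data known. Values in every tumour are given for genes with a called probe set, the 10 smallest unadjusted p-values and the 6 widest spans. Of each neighbouring list the 3 genes with the smallest unadjusted p are named. Alternatives were 2 scalings, eBayes with trend or robust, array weights, a filter on dim probe sets, a replicate block, each array left out, and gene means over probe sets. Fixed marker lists covered 6 cell types, hepatocytes (4 of 4 higher, by at most 0.49 millionths) and epithelium (4 of 8 higher) included.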

Additional observations from a re-analysis of the deposited data

How the results depend on the processing

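The 10 named members with the smallest unadjusted p had a difference below 0 under all 14 alternatives. All 10 had groups apart in that direction as deposited, so the sign was fixed in advance without any 1 array and with array weights. The eBayes settings, the filter and the replicate block leave the difference itself unchanged. Gene means over probe sets could have changed it. For the 2 scalings, which put nearly all probe sets below 0, that sign carries no information. Relative to the median of all probe sets 9 of the 10 were lower under quantile normalization. With array medians subtracted 10 of the 10 were, which was fixed in advance because that scaling moves all probe sets alike. Without any 1 array 15 to 17 of the 17 sterol branch enzymes were lower, 6 to 8 of them at an unadjusted p under 0.05. Over all probe sets 45.0% to 46.9% were lower in these fits, and 8.08% to 10.2% at that p. The count of member probe sets called was 0 to 1 without 1 array (a dimmer Scd2 probe set, without WT replicate 2), 0 with either scaling and 0 with the replicate block. Of all probe sets 0.162% were called without WT replicate 2 and 0% to 0.0133% without any other array. With quantile normalization and with the replicate block 0% were, and with array medians subtracted 0.151%. The member count was 3 when only probe sets above the median level were tested, which are fewer and of which 1.27% were called, against 0.175% of all probe sets in the whole table. At that filter 2 genes were called by their brightest probe set (Sc5d, adjusted p = 0.0455, and Fdps, adjusted p = 0.0477, limma). Without 1 array the called Hmgcs1 probe set ran from -130.4 to -118 millionths. It was not called with the replicate block (-125 millionths, adjusted p = 0.153, limma) or either scaling (-488 and -888 millionths).

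With quantile-normalized arrays and with array medians subtracted, 1 member each had an unadjusted p under 0.05, as did 1.31% and 0.193% of all probe sets, against 20.3% as deposited. At that threshold 0 sterol and 0 fatty acid enzymes were lower. By sign alone 7 fatty acid enzymes were lower, and 34 and 35 of the 37 neighbouring genes were lower, against 18 as deposited. With gene means over probe sets 4 fatty acid enzymes were lower. These genes stood above 0 as deposited and below 0 under these scalings, along with nearly all probe sets, whose median moved to -538 and -764 millionths, in that order: Pmvk (-409 and -764 millionths), Stard4 (-305 and -764), Acly (-1611 and -763), Acss2 (-897 and -761), Acaca (-797 and -749), Fasn (-765 and -692) and Elovl6 (-885 and -764). Gene means turned Stard4 (-10.1), Acly (-2.28) and Elovl6 (-0.88). Without 1 array Pmvk ran from -1.40 to 1.66 millionths, Hsd17b7 from -1.26 to 0.17, Ebp from -5.25 to 5.13 and Elovl6 from -1.58 to 1.95. Same-numbered arrays had correlations of deviations of 0.029, -0.016 and 0.0053, and the other pairings ran from -0.079 to 0.072. No pairing by number was thus seen, though 3 arrays per group cannot exclude it. With the replicate block 6 sterol branch enzymes were lower at an unadjusted p under 0.05, as were 8.95% of all probe sets.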
